A study of Mus musculus with 12 samples.

Results

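RelA binding in wild-type macrophages was compared between unstimulated cells (0 h) and cells given lipopolysaccharide (LPS) for 3 h. The members are hotspots, regions of the genome enriched for sequence tags after immunoprecipitation with an antibody against RelA. They were taken from the 2 libraries labelled wild type, RelA, 0 h and 3 h, and every hotspot overlapping a hotspot of untreated wild-type input DNA by 1 bp or more was dropped. This left 47 hotspots at 0 h and 4972 at 3 h, 5019 of the 50940 hotspots deposited over all 10 lists of the series. The cells were primary macrophages that had been grown out of the bone marrow of C57BL/6J mice. LPS, from the outer membrane of Gram-negative bacteria, is the only agent. The labels give neither the number nor the age of the animals and do not say whether cells were pooled. The assay measures no expression, so the labelled cell type could not be checked against marker genes. The file of the library labelled 0 h carries 3 h in its name, and the label was used throughout. Other lists used for comparison are RelA at 8 h and Ikaros at 0 and 3 h in wild-type cells, and RelA at 0 and 3 h in cells labelled littermate control. Each group holds 1 library, so there is no replicate spread and no test between times.

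RelA, also called p65, is a subunit of the transcription factor NF-kB. In resting macrophages most NF-kB is held in the cytoplasm by inhibitor proteins of the IkB family. Signals from LPS through its receptor TLR4 lead to destruction of the inhibitors, after which RelA enters the nucleus and binds kB sites, short sequences that start with a run of G and end with a run of C. Its target genes encode cytokines, chemokines and enzymes of host defence, and also the inhibitors that shut the pathway off.

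The promoters of 4 genes show what such sites look like at target genes of this pathway. They are 4 of the 6 genes that had a 3 h RelA hotspot within 50 kb and a match to the stricter of 2 kB motifs in the promoter. Here and below, the mm9 position of each named gene was written from general knowledge and rounded to 10 kb. It was not checked against an mm9 annotation. The error of these positions is therefore unknown and may exceed 10 kb. Distances to genes, and counts within 50 kb, hold only as far as the positions do. Sequences are the 250 bases before a RefSeq transcription start, from GRCm38.p6, 5′ to 3′ on the strand of the gene. Capitals mark matches to a loose kB motif (GGG, any 5 bases, CC) on either strand, and adjoining or overlapping matches run together.
Nfkbia promoter (chr12:55492648-55492897, minus strand): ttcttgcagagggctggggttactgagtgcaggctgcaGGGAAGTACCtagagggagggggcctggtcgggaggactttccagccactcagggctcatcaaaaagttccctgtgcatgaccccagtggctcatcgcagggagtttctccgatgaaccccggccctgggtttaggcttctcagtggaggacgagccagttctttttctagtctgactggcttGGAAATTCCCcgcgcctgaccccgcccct
Tnfaip3 promoter (chr10:19015411-19015660, minus strand): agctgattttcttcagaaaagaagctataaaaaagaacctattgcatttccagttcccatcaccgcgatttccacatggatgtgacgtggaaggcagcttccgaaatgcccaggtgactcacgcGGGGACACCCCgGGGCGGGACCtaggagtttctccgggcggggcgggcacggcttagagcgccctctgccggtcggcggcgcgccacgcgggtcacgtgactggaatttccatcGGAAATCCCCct
Cxcl2 promoter (chr5:90903649-90903898, plus strand): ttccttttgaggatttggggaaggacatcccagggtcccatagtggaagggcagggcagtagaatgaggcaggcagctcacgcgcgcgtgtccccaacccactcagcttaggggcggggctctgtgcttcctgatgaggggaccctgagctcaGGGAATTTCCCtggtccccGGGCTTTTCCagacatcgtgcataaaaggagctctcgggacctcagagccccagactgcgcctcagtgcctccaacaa
Il6 promoter (chr5:30012864-30013113, plus strand): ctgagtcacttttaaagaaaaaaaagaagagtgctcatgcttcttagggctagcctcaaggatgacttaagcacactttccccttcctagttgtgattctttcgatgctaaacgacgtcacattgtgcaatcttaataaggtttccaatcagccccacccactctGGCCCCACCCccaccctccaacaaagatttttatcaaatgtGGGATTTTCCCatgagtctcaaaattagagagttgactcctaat

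Hotspot positions are on mm9 and cannot be set beside these GRCm38.p6 positions, so the letters are not placed within a hotspot. Nfkbia encodes IkB-alpha, the inhibitor that NF-kB itself induces, and its stricter match GGAAATTCCC began 29 bases before the start. Tnfaip3 encodes A20, an enzyme that damps signalling to NF-kB, and carried GGAAATCCCC 12 bases before the start. Cxcl2, a chemokine that attracts neutrophils, had GGGAATTTCC and GGGCTTTTCC, beginning 97 and 78 bases before the start. Il6, an inflammatory cytokine, had GGGATTTTCC 44 bases before it.

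The promoter table used here, from RefSeq, held 18 promoters of 13 of the 17 target genes described below. The loose motif, searched on both strands, was in 16 of these 18, 88.9%, and in 45.8% of all 32851 promoters in the table. The stricter motif (GGG, any 2 bases, TTTCC), searched on both strands and contained in the loose one, was in 7 of the 18, 38.9%, and in 1.41% of all promoters. The stricter motif was added after the data were seen, and the genes were picked as known targets. Some genes have more than 1 of the 18 promoters, so these shares are a description and no test of enrichment. The genes with a stricter match were Cxcl2, Il1rn, Il6, Nfkb2, Nfkbia and Tnfaip3. Tnf, Cxcl10, Acod1, Icam1, Ptgs2 and Rela matched only the loose motif, and Il1b matched neither in this window. A match is a description of letters, and its use by RelA was not measured here.

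RelA was listed at few places before LPS and at far more 3 h after it. Of the 4972 hotspots at 3 h, 4935 had no 0 h hotspot overlapping by 1 bp, 99.3% (95% exact Clopper-Pearson interval 99.0 to 99.5). The length of the lists nearly fixes this share: had each of the 47 hotspots at 0 h met 1 hotspot at 3 h, it would be 99.1%. With the 3 h list held to its 47 strongest hotspots, 61.7% had no 0 h hotspot. The 4935 are called gained below, the other 37 shared. Of the 47 hotspots at 0 h, 37 were shared, 78.7%, and 10 were listed at 0 h alone, 21.3%. The shared share was 40.4% under a reciprocal overlap of at least 50%, 38.3% against the 47 strongest 3 h hotspots, and 97.3% among hotspots of highest density 10 or more. Intervals cover counting error over hotspots only. The regions covered 20.8 kb at 0 h and 2821 kb at 3 h.

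The lists differed in how far down they reached. The lowest z score was 9.93 at 0 h and 8.88 at 3 h. The z score is as deposited by the authors, and the background it refers to is not given in the sources used here. With both lists held to the higher of these, 4013 hotspots stayed at 3 h, still far more than the 47 at 0 h. The highest tag density in a hotspot, on the deposited scale, had a median of 19.4 at 0 h and 18.5 at 3 h, but its maximum was 38.8 at 0 h and 171 at 3 h. Sequencing depth per library is unknown and the scaling of densities is not given in the sources used here. Absence from the 0 h list is therefore not absence of RelA.

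Input DNA overlapped a much larger share of the 0 h list. Of the 83 hotspots deposited at 0 h, 36 met an input hotspot, 43.4%, and these included 9 of the 10 strongest by z score. At 3 h it was 45 of 5017, 0.897%, and none of the 10 strongest. Of the 36 removed at 0 h, 16 also overlapped a hotspot deposited at 3 h. Without the input filter 83 hotspots stood at 0 h, and 98.9% of 5017 hotspots at 3 h were gained.

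Shared regions stood high in the 3 h list, although most of the strongest 3 h regions beyond the first 20 were gained. Of the 47 hotspots at 0 h, 18 were among the 47 strongest at 3 h and 10 were not listed there. Shared regions took 6 of the first 10 places by 3 h z score, 11 of the first 20 and 20 of the first 100. Their median rank at 3 h was 65 of the 5017 hotspots deposited, against 2528 for gained regions. Their median z score at 3 h was 55.1 and that of gained regions 12.8. Shared regions were also wide, with a median of 932 bp against 536 bp, and 13 of the 37 reached 1000 bp against 193 of the 4935 gained. The median of the highest density was 67.1 in shared and 18.5 in gained regions. These are values of 1 library and carry no test.

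**Figure D1:**
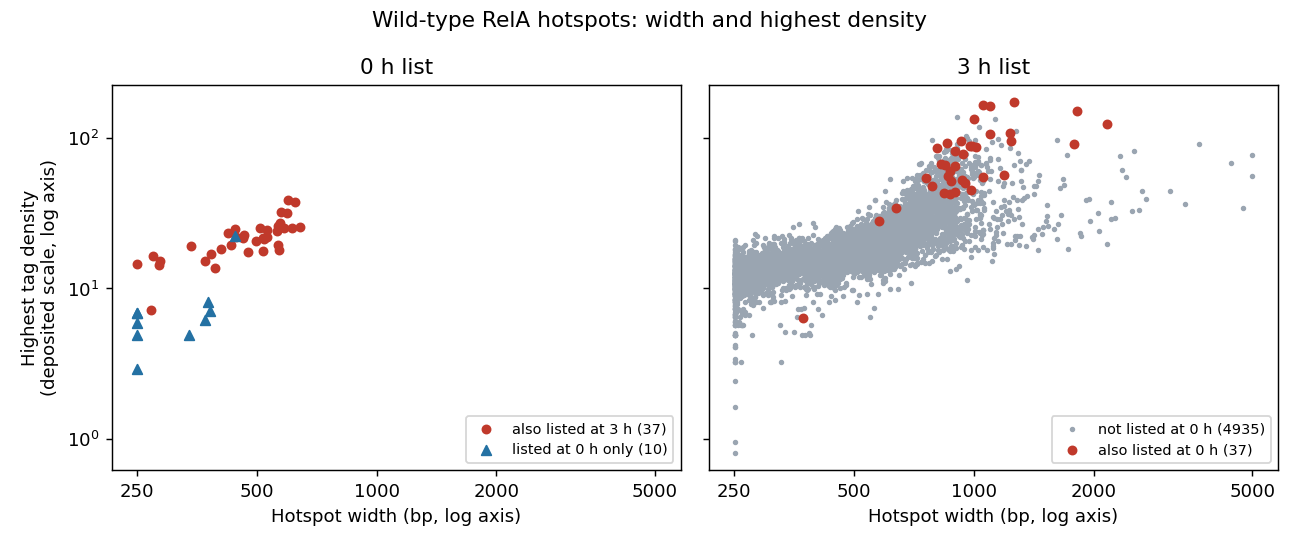
Width in bp (x, log axis) and highest tag density on the deposited scale (y, log axis) of each hotspot, with the 0 h list on the left and the 3 h list on the right. Red points are the 37 shared regions, blue triangles the 10 listed at 0 h only and grey points the 4935 gained, and at 3 h 36 of the 37 shared regions lie above the gained median of 18.5.

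Each shared region was listed as broader at 3 h. All 37 were wider, 36 had a higher highest density as deposited, and in 36 the 0 h hotspot lay wholly inside the 3 h hotspot. The centres of the paired hotspots were a median of 48.0 bp apart and 583 bp at most. At 0 h the shared regions had a highest density between 7.23 and 38.8, median 21.8, and at 3 h between 6.42 and 171. Because the scaling of the densities is not known, the values are set side by side and no fold is given. How hotspots were called and cut off is not known either. Listed widths may therefore differ between the lists for reasons other than the extent of binding, which was not tested.

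The strongest region at 3 h lay at chr10:77597384-77599198. Its highest density was 19.4 at 0 h and 151 at 3 h, and its listed width was 566 bp at 0 h and 1814 bp at 3 h. The next, at chr17:13202574-13203628, had 37.6 and 164. Ranked 3 was chr2:167602606-167603704, with 25.0 and 162. All 3 were in the wild-type 8 h and littermate 3 h lists.

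The region of rank 4, at chr10:18734572-18735829, lay at Tnfaip3, the gene of the NF-kB inhibitor A20. It had a highest density of 31.9 at 0 h and the highest of the whole list at 3 h, 171. chr7:25905111-25906102 had 21.4 at 0 h and 88.6 at 3 h, and chr11:59354491-59356649 had 17.7 and 123. The latter had the largest distance between paired centres, 583 bp, with listed widths of 518 bp at 0 h and 2158 bp at 3 h. chr10:74789177-74790105 had 27.0 and 94.7, and chr10:37057707-37058936 had 18.1 and 107. Completing the first 10 shared regions, chr3:131360829-131361842 had 26.0 and 87.3, and chr15:6518733-6519830 had 25.0 and 105. Of these 10, all were in the wild-type 8 h and littermate 3 h lists, and 6 were in the littermate 0 h list.

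One shared region behaved otherwise. On chromosome 12, the 0 h hotspot at 5623192 to 5623463 and the 3 h hotspot at 5623200 to 5623572 had highest densities of 7.23 and 6.42, and the 0 h hotspot reached 8 bp beyond the start of the 3 h one. It was in neither littermate list, but in the wild-type 8 h list.

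**Figure D2:**
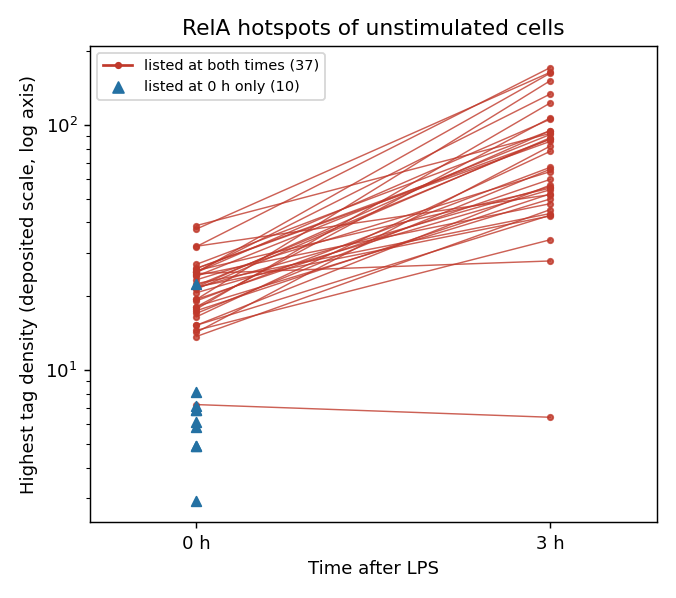
Highest tag density on the deposited scale (log axis) at 0 h and 3 h for RelA hotspots of unstimulated wild-type cells. Each red line joins the 2 values of a shared region, and 36 of 37 lines rise, while 9 of the 10 hotspots listed at 0 h only (blue triangles) have a value under 10.

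Regions listed only before LPS were faint and narrow. Their highest density was under 10 in 9 of the 10, against 1 of the 37 shared regions at 0 h. Their median width at 0 h was 295 bp, and 5 of the 10 had the smallest width in these lists, 251 bp, against a median of 510 bp and 1 region for the shared. None was in the wild-type 8 h list, 0% (exact interval 0 to 30.8). In littermate cells, 1 was in the 0 h list and 1 other in the 3 h list. Gained regions of highest density under 10 were in the wild-type 8 h list in 6.88% of cases. They were in the littermate 3 h list in 13.3%. Absence from those lists therefore does not set the 10 regions listed only at 0 h apart from faint gained regions. The difference was not tested. The median z score at 0 h was 11.1 for these 10 and 12.7 for the shared, so z scores separated them less than densities did.

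By z score, the first was at chrX:122525856-122526238 (highest density 7.12, z 16.7). chr9:48946954-48947324 (6.14, z 14.3) was the one also listed in littermate cells at 0 h. chr15:82176247-82176689 was the dense exception (22.3, z 13.3) and carried an Ikaros hotspot at 0 and 3 h. A further pair lay on chromosome X, at 3218144 to 3218521 (8.10, z 13.0) and at 152909235 to 152909574 (4.89, z 10.8), so 3 of the 10 were on that chromosome. Of gained regions of highest density under 10, 15.1% were on chromosome X. No shared region lay on chromosome X, nor on chromosomes 9, 14, 18 and Y. In that order, these chromosomes held 2.23%, 5.01%, 3.85%, 2.70% and 0.0203% of gained regions. With only 37 shared regions, absence from any 1 of these chromosomes says little, and it was not tested.

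The other 5 were at the smallest width. They lay at chr12:49350794-49351045 (2.94, z 11.4), chr5:104760128-104760379 (6.85, z 10.3), chr8:11931562-11931813 (5.87, z 10.3), chr8:17629246-17629497 (4.89, z 10.2) and chr12:110474182-110474433 (6.85, z 9.93). The last was the one found in littermate cells at 3 h.

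Gained regions ranged from single narrow calls to broad domains. Widths ran from 251 to 4994 bp, with quartiles of 385 and 682 bp, and 252 of the 4935 stood at 251 bp. Highest densities ran from 0.815 to 137, with quartiles of 14.6 and 25.3. Among the first 10 by z score, all were in the wild-type 8 h list and in the littermate 3 h list, and 3 were in the littermate 0 h list. The strongest was at chr19:22022084-22023086 (rank 5, z 104, highest density 133).

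It was followed by chr19:6945023-6946053 (z 98.7), chr11:117807380-117808507 (z 93.4) and chr2:167579186-167580092 (z 86.9). The last had the highest density of any gained region, 137, and lay 22.5 kb from the shared region that begins at 167602606. It was also listed in littermate cells at 0 h, as were chr17:29531743-29533017 (z 83.9) and chr18:61234028-61234934 (z 74.4). The remaining 4 of the first 10 were chr5:44272856-44274091 (z 80.8), chr17:26671788-26672874 (z 79.5), chr9:88847569-88848558 (z 75.3) and chr6:134650462-134651470 (z 74.9).

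The widest gained region, 4994 bp at chr17:35334857-35339851, lay at Tnf, the gene of tumour necrosis factor. It ranked 57 by z score (56.3). Next were chr11:83336778-83341760 (4982 bp, z 37.2) and chr5:143663170-143667894 (4724 bp, z 29.8). The region of 4411 bp at chr5:92774129-92778540 lay at Cxcl10, a chemokine that attracts T cells. That of 3664 bp at chr14:103445716-103449380 lay at Acod1, the enzyme that makes itaconate. All 5 were in the littermate 3 h list and none was in the littermate 0 h list. Of all gained regions, 34.0% were in the former and 3.04% in the latter. Absence of these 5 from the littermate 0 h list therefore does not set them apart. The part of their width in these counts was not tested. The region at 83336778 was the one of the 5 missing from the wild-type 8 h list.

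Gained regions of higher z score were also wider, and were in other RelA lists more often. Over all gained regions, 1677 were in the littermate 3 h list, 34.0% (32.7 to 35.3), and 1520 in the wild-type 8 h list, 30.8% (29.5 to 32.1). Split by z score into 5 equal bins, the share in the littermate 3 h list was 8.21% (6.57 to 10.1) in the weakest bin, 22.7% (20.1 to 25.4) in the middle and 79.0% (76.4 to 81.5) in the strongest. The median width rose over the same bins, from 279 bp in the weakest to 804 bp in the strongest, and its part in the shares was not tested. Only 150 gained regions were in the littermate 0 h list, 3.04% (2.58 to 3.56), and 90 of these were in the strongest bin. Of the shared regions, 28 of 37 were in the littermate 0 h list, 75.7% (58.8 to 88.2), and 35 in the littermate 3 h list. The series carry different genotype labels. Whether they also differ in animals or library preparation is not stated, so such effects cannot be told apart. Ikaros at 3 h overlapped 53.7% of gained and 34 of 37 shared regions, and Ikaros at 0 h 5.25% and 15 of 37. All these shares also depend on how long each other list is, which is not given here. They therefore do not compare binding between those lists.

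**Figure D3:**
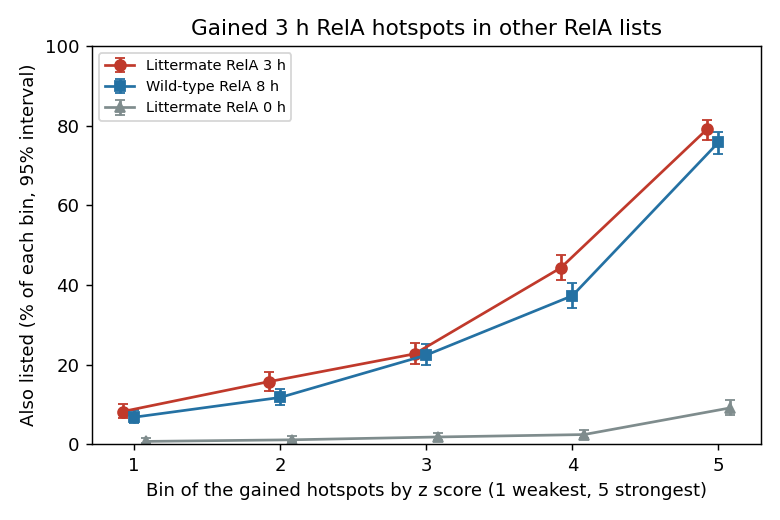
Share of gained 3 h hotspots (%, y) that overlap a hotspot of another RelA list by 1 bp or more, for each of 5 equal bins by z score (x), with 95% exact intervals. The shares in the littermate 3 h and wild-type 8 h lists climb from under 10% to over 75%, and that in the littermate 0 h list stays below 10%.

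Gained regions were spread unevenly over chromosomes. There were 1.87 per Mb over all, with the highest end coordinate in any list standing in for chromosome length. Chromosome 11 had the most, 3.02 per Mb, with 7.46% of gained regions on 4.61% of the length. Chromosomes 19 (2.58), 17 (2.41) and 2 (2.34) followed. Among autosomes the lowest was chromosome 18, with 1.47 per Mb. Chromosome X had 0.660 per Mb, and its share of gained regions was 2.23% on 6.31% of the length. On chromosome Y 1 region was listed.

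Chromosome X also differed in kind. Of its 110 gained regions, 33 had a highest density under 10, 30.0%, against 4.42% of all gained regions. With denser regions alone chromosome X held 0.462 per Mb and chromosome 11 held 2.95. The 218 gained regions under 10 had a median width of 257 bp and a median z score of 9.51. They were in the littermate 3 h list in 13.3% of cases, against 34.9% for denser regions, and in the wild-type 8 h list in 6.88% against 31.9%.

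**Figure D4:**
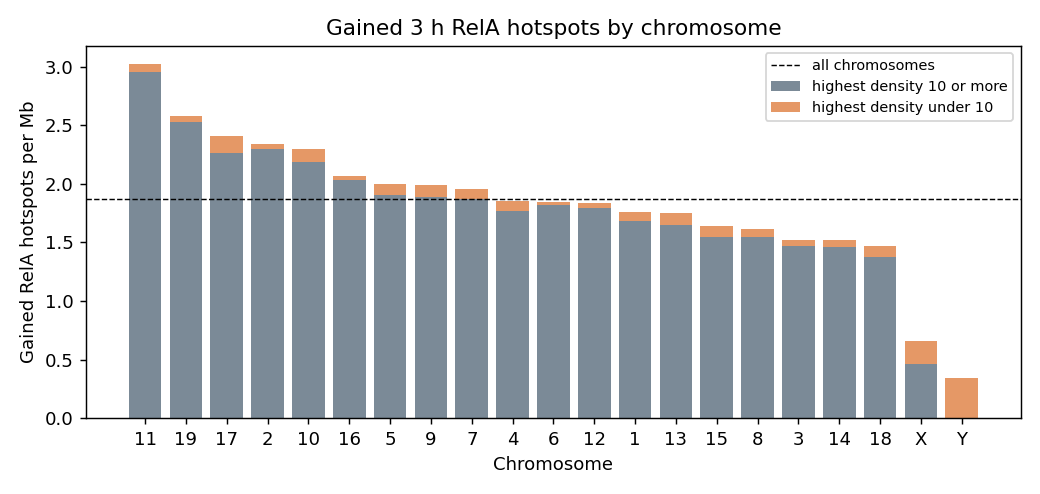
Gained 3 h RelA hotspots per Mb (y) on each chromosome, ordered from high to low, with hotspots of highest density 10 or more in grey and under 10 in orange; the dashed line is the value over all chromosomes, 1.87. Chromosome 11 stands highest at 3.02, and X at 0.660 has the largest orange part of the chromosomes with more than 1 hotspot.

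Many gained regions had a close neighbour. A second 3 h hotspot lay within 10 kb of 1699 gained regions, 34.4% (33.1 to 35.8), from 26.7% (24.0 to 29.6) in the weakest bin to 43.1% (39.9 to 46.2) in the strongest bin. For shared regions it was 19 of 37, 51.4% (34.4 to 68.1). Having a neighbour is mutual, so hotspots are not independent here and these intervals may be too narrow. No difference between the groups was tested. Joining 3 h hotspots with gaps of 10 kb or less gave 3939 groups, of which 3254 were single hotspots, 491 pairs, and 194 held 3 or more, 736 hotspots in all.

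The largest group held 13 hotspots over 29.2 kb at chr12:27125626-27154834. Its hotspots had a median z score of 11.9 and a highest of 23.7, and 1 of 13 was in the littermate 3 h list. The next, 12 hotspots over 32.6 kb at chr11:117820995-117853564, reached z 58.4 and had 8 of 12 in the littermate list. Others were chr11:86393914-86438380 (11 hotspots, 4 in the littermate list), chr12:112667756-112694992 (10, with 3) and chr14:103432667-103459748 (9, with 3). None of these 5 groups held a shared region, but 99.3% of all 3 h hotspots were gained, so this does not set the groups apart. The last lay at Acod1.

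RelA was listed near most of the known target loci examined. Of 17 loci, 16 had at least 1 gained hotspot within 50 kb of the gene at 3 h. The windows, placed on those unchecked positions, covered 2.13 Mb, 0.0807% of chromosome length, and held 59 hotspots, 1.19% of the 3 h list, or 27.7 per Mb against 1.88 over all. Of the 59, 58 were gained, 98.3%, near the 99.3% of the whole list. The median z score was 16.2 against 12.9 for the whole list, and 31 of 59 were in the littermate 3 h list, 52.5% against 34.4%. The strongest hotspot was among the first 100 by z score at 8 loci. The genes were picked as known targets with earlier results of these data known, and the values are a description.

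The feedback inhibitor loci examined, Tnfaip3 and Nfkbia, each held a strong hotspot, and the other inhibitors listed were not analysed. Tnfaip3 had 5 hotspots, led by the shared region of rank 4, with z scores down to 9.40 and 2 of 5 in the littermate 3 h list. A gained hotspot of rank 225, at chr10:18728803-18729622, had z 38.4 and was in the littermate list at 0 h as well as 3 h. Nfkbia had 6 hotspots, all gained, of which 5 were in the littermate 3 h list. The strongest was at chr12:56593143-56594294 (rank 40, z 59.9), and 2 broad ones lay nearby at 56587784 to 56590485 (2701 bp, z 25.2) and 56590922 to 56592984 (2062 bp, z 17.6).

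The genes of the NF-kB subunits differed. Nfkb1, which encodes p105 and p50, had its strongest hotspot at chr3:135333235-135334202 (rank 38, z 60.4), also listed in littermate cells at 0 h. Nfkb2, which encodes p100 and p52, had 1 hotspot, at chr19:46378659-46380373 (rank 37, z 60.7). Rela itself had 3 weaker hotspots, the first at chr19:5636410-5637062 (rank 1001, z 20.7), and none of the 3 was in the littermate 3 h list.

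Cytokine loci ranged from strong to none. Besides its widest region, Tnf had 3 hotspots, of which chr17:35356300-35357221 was the strongest (z 36.9), and all 4 were in the littermate 3 h list. Il1b, which encodes interleukin-1 beta, had 4, all in that list, led by chr2:129206259-129207086 (rank 402, z 31.2). Il1rn, the gene of the interleukin-1 receptor antagonist, had 1 (chr2:24200429-24201126, z 22.1). Il6 had 1, at chr5:30339097-30339789 (rank 1559, z 16.5), in neither the littermate 3 h nor the wild-type 8 h list. Il10, an anti-inflammatory cytokine, had no hotspot within 50 kb and had one within 100 kb.

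Among chemokine loci, Cxcl10 had 5 hotspots, led by its broad region (rank 58, z 56.3). Ccl2, which attracts monocytes, had 5, and the strongest lay about 20 kb from the gene, at chr11:81820094-81821100 (rank 99, z 49.4). Cxcl2 had 4, led by chr5:91331845-91333157 (rank 128, z 46.4). All 3 leading hotspots were in the littermate 3 h list and the wild-type 8 h list. Most of the weaker ones were not in the littermate 3 h list. Counting every hotspot, it held 2 of 5 at Cxcl10, 2 of 5 at Ccl2 and 1 of 4 at Cxcl2, against 34.4% of the whole 3 h list.

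Acod1 had 11 hotspots, the most of any locus, with z scores from 9.43 to 55.3 and 5 of 11 in the littermate 3 h list. Icam1, an adhesion molecule, had 5, led by a region of 2202 bp at chr9:20819497-20821699 (rank 770, z 23.3). That region was in neither the littermate 3 h nor the wild-type 8 h list, and 1 of the 5 was in the littermate 3 h list. Nos2, the inducible nitric oxide synthase, had 1, about 30 kb away at chr11:78700511-78701057 (rank 1869, z 15.1), also in neither list. Ptgs2, which encodes cyclooxygenase-2, had 1 near the bottom of the list, at chr1:151946827-151947232 (rank 4902 of 5017), which was nonetheless in the littermate 3 h and wild-type 8 h lists.

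**Figure D5:**
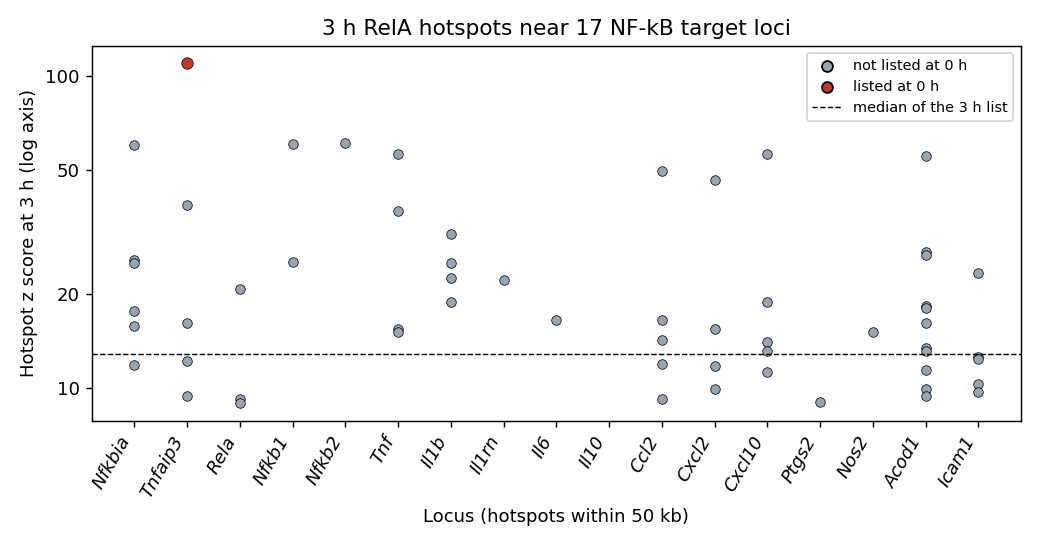
Z score (log axis) of every 3 h RelA hotspot within 50 kb of each of 17 NF-kB target loci, in grey where not listed at 0 h and in red where listed; the dashed line is the median of the 3 h list, 12.9. Tnfaip3 has the highest point and the only red one, Acod1 has 11 points and Il10 has none.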

How the data were processed

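Every list was made by the authors from a single library, on mm9 as the submitters' processing notes say. Those notes name CASAVA with no role. How reads were aligned, how hotspots were called and cut off, and whether input was subtracted is not given in the sources used here. Per the file headers, the authors deposited for each hotspot the highest and mean tag density (a signal, scale not stated), a z score and its p-value. Coordinates are printed as deposited.

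Hotspots that met a wild-type input hotspot were dropped, and lists were joined wherever regions had at least 1 bp in common. Shares carry 95% exact Clopper-Pearson intervals. Computations used Python 3.11.15, numpy 2.4.6, pandas 2.3.3, scipy 1.17.1 and matplotlib 3.10.9. On simulated lists of 2000 regions all 500 planted overlaps were found, and the 533 regions found equalled the count from bedtools.

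Regions were named by a rule: every 0 h-only region, the first 10 shared and 10 gained by 3 h z score, the 5 widest gained, the 5 largest groups, and the strongest hotspot of each locus; other hotspots at a locus were chosen after their values were seen. Members and lists were chosen with earlier results of these data known. Of 41 listed loci 24 were not analysed here, because their draft positions had been reckoned from another build. The 17 kept were written from memory of mm9, in a draft that also held GRCm38 positions, and come from no file. In the GRCm38.p6 RefSeq table all 17 were on the same chromosome and 6 of 6 neighbouring pairs in the same order, with spacings that differed by 2.74 to 109 kb, and 6 loci had no neighbour to compare. Since the positions are not independent of GRCm38, this is a weak check.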

Additional observations from a re-analysis of the deposited data

How the results depend on the processing

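No value here has a test. For shares, the interval of the main value is the bound; for numbers it is a factor of 1.5. Of 37 alternatives to 10 results, 23 stayed inside the bound and 14 went past it. Without the input filter the 0 h list held 83 hotspots, 98.9% of 3 h hotspots were gained and 63.9% of 0 h hotspots were listed at 3 h. With a highest density of 10 or more the last share was 97.3%. With the 3 h list held to 47 hotspots, 61.7% were gained and 38.3% of 0 h hotspots were listed. Under reciprocal overlap of at least 50%, 99.6% were gained and 40.4% of 0 h hotspots were listed, because a narrow 0 h hotspot inside a wide 3 h one then does not count. Under that rule gained regions were in the littermate 3 h list in 29.6%, the littermate 0 h list in 2.34% and the wild-type 8 h list in 27.6% of cases. A neighbour lay within 5 kb of 25.1% and within 50 kb of 58.9% of gained regions. Loci with a gained hotspot numbered 15 within 20 kb and 17 within 100 kb. Of the target genes with a promoter in the table, 12 held the loose motif and 6 the stricter one, which was added after the data were seen. No paired analysis was possible because each group holds 1 library, no label ties libraries together and the values come from no test. For the same reason no library could be left out. Depth is unknown, so the weakest binding each library could list is too.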
